A study of Mus musculus with 3 samples.

Results

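The transcripts described here come from 35 genes that heart muscle cells (cardiomyocytes) use to contract, to move calcium and to supply energy, and they were counted in libraries made from sorted heart macrophages. The genes were taken from a fixed list of symbols with no measured value in the rule, and all 35 of the 35 listed were among the 30406 genes present in each of the 3 libraries. The mice were wild type, were 32 to 34 weeks old and had been kept on 1 of 3 diets, named control (CD), high fat (HFD) and Western (WD), with no other allele or agent named in the labels. After collagenase digestion of flushed hearts, live single cells positive for CD45, F4/80 and CD11b, a gate for macrophages that cardiomyocytes should not pass, were sorted and sequenced on the 10x Genomics platform. The chemistry named for them was 3′ v2. Each diet is 1 library. How many mice each holds was not stated in the labels. Without replicates, differences between diets were not tested.

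Libraries held 17464149 (CD), 16630481 (HFD) and 79269380 (WD) unique molecular identifiers (UMIs, each standing for 1 captured transcript), and the 35 genes gave 24104, 36900 and 54011 of them. The WD counts were written by 10x software version 7.2.0 and the others by 3.0.1. The WD file lists 6885 barcodes of at least 504 UMIs and the others list 737280, so diet, software and depth cannot be told apart in any comparison with WD, and near-empty droplets could be read in CD and HFD only. Among barcodes of at least 1000 UMIs, 17 were shared by CD and HFD, 1 by CD and WD and 0 by HFD and WD. Fewer were shared with WD although it had the most such barcodes, 6461 against 2860 in CD and 3084 in HFD. Whether WD was made with the same chemistry as the others was not tested. A difference in chemistry could not be told apart from diet either.

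Barcodes were placed in 4 classes. C1q-high barcodes had at least 1000 UMIs, at least 200 genes, at most 10% of UMIs from mitochondrially encoded (mt-) genes and at least 0.3% from C1qa, C1qb and C1qc, which macrophages make. These were 2293 barcodes in CD, 2002 in HFD and 3717 in WD. C1q-low barcodes met the same limits with less C1q (386, 715 and 1058), another class had over 10% mt- UMIs (181, 367 and 1686), and near-empty barcodes had 1 to 50 UMIs (255093 in CD and 249950 in HFD). The 8 macrophage markers, C1q genes included, summed to 22790 CPM (UMIs of a gene or list over all UMIs of the class, times 1000000) in C1q-high barcodes of CD, to 24891 CPM in those of HFD and to 11735 CPM in those of WD. C1q-low barcodes held 1017, 759 and 2150.0 CPM. The C1q genes also set these classes, so the gap between the sums follows largely from the rule. Csf1r, Adgre1, Fcgr1, Mrc1 and Cd68, which the rule did not use, were each higher in C1q-high than in C1q-low barcodes of each library. Csf1r stood at 884, 932 and 730 CPM against 125, 78.7 and 232 CPM. From CD to WD C1q-high barcodes Mrc1 went from 524 to 1984 CPM, while Csf1r, Adgre1, Fcgr1 and Cd68 were lower in WD.

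A sarcomere contracts when thick filaments of myosin pull on thin filaments of actin, and calcium binding to the troponin complex on the thin filament switches this on. Calcium is released from the sarcoplasmic reticulum through the ryanodine receptor and taken back by the SERCA pump, which phospholamban and sarcolipin restrain. Atrial and ventricular muscle build the same sarcomere with partly different parts: atrial cells use the light chains Myl7 and Myl4, sarcolipin and the hormone gene Nppa, where adult ventricular cells use Myl2 and Myl3 and mostly phospholamban.

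All 35 genes had at least 1 UMI in the C1q-high barcodes of each library. Summed over the list, CD stood there at 526 CPM (95% interval 513 to 539), HFD at 968 CPM (945 to 993) and WD at 599.7 CPM (594 to 606), that is between 0.0526% and 0.0968% of UMIs. HFD was the highest of the 3, and the intervals, which like all intervals here are 95% intervals for counting error only, did not overlap. The list was 1.84-fold (1.78 to 1.91) higher in HFD than in CD, 1.14-fold (1.11 to 1.17) higher in WD than in CD and 1.61-fold (1.57 to 1.66) lower in WD than in HFD. The WD to CD difference was the small one. It ranged from 0.029 to 0.35 on the log2 scale over the alternatives tried. With the C1q split at 1% its interval held 0 (-0.020 to 0.079). Atp2a2 alone gave 20.2% of list UMIs in WD C1q-high barcodes and 6.80% in those of CD. Of the 35 members, 19 stood higher in WD than in CD and 16 lower. The WD to CD ratio of the list without Atp2a2 was not computed. Markers of other cell types also differed between these barcodes. From CD to HFD the 5 fibroblast markers went from 20.2 to 65.0 CPM and the 6 endothelial markers from 47.8 to 76.4 CPM, with all detected in both. The smooth muscle and pericyte markers went from 17.1 (5 of 6, Cnn1 at 0) to 34.1 CPM (6 of 6), and the 5 erythroid markers from 570.4 to 8.79 CPM. In WD the 4 lists stood at 24.4, 17.0, 6.97 and 77.2 CPM. Their part in the list's differences was not tested.

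In near-empty barcodes the list stood at 1573 CPM in CD and 2156 CPM in HFD, 2.99-fold (2.87 to 3.12) and 2.23-fold (2.14 to 2.32) above the C1q-high level. The same barcodes drew 50.2% and 46.7% of their UMIs from mt- genes, and with CPM taken over the other genes the log2 ratios were 2.53 in CD and 1.997 in HFD, in place of 1.58 and 1.15. The class was not uniform. In CD, barcodes of 11 to 50 UMIs gave 1830387 of its 2131239 UMIs, at 53.7% mt- and 1642 CPM of the list. Those of 6 to 10 UMIs stood at 18.6% mt- and 868 CPM. Whether this RNA was free or in debris was not tested. Barcodes with over 10% mt- UMIs held 3298 CPM in CD, 3473 CPM in HFD and 1748 CPM in WD, or 6.27-fold (5.90 to 6.66), 3.59-fold (3.42 to 3.76) and 2.91-fold (2.85 to 2.98) the C1q-high level. With only barcodes over 20% mt- the WD log2 ratio was 2.34 in place of 1.54. In each library the list was lower in C1q-high barcodes than in those 2 classes, where they could be read.

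**Figure D1:**
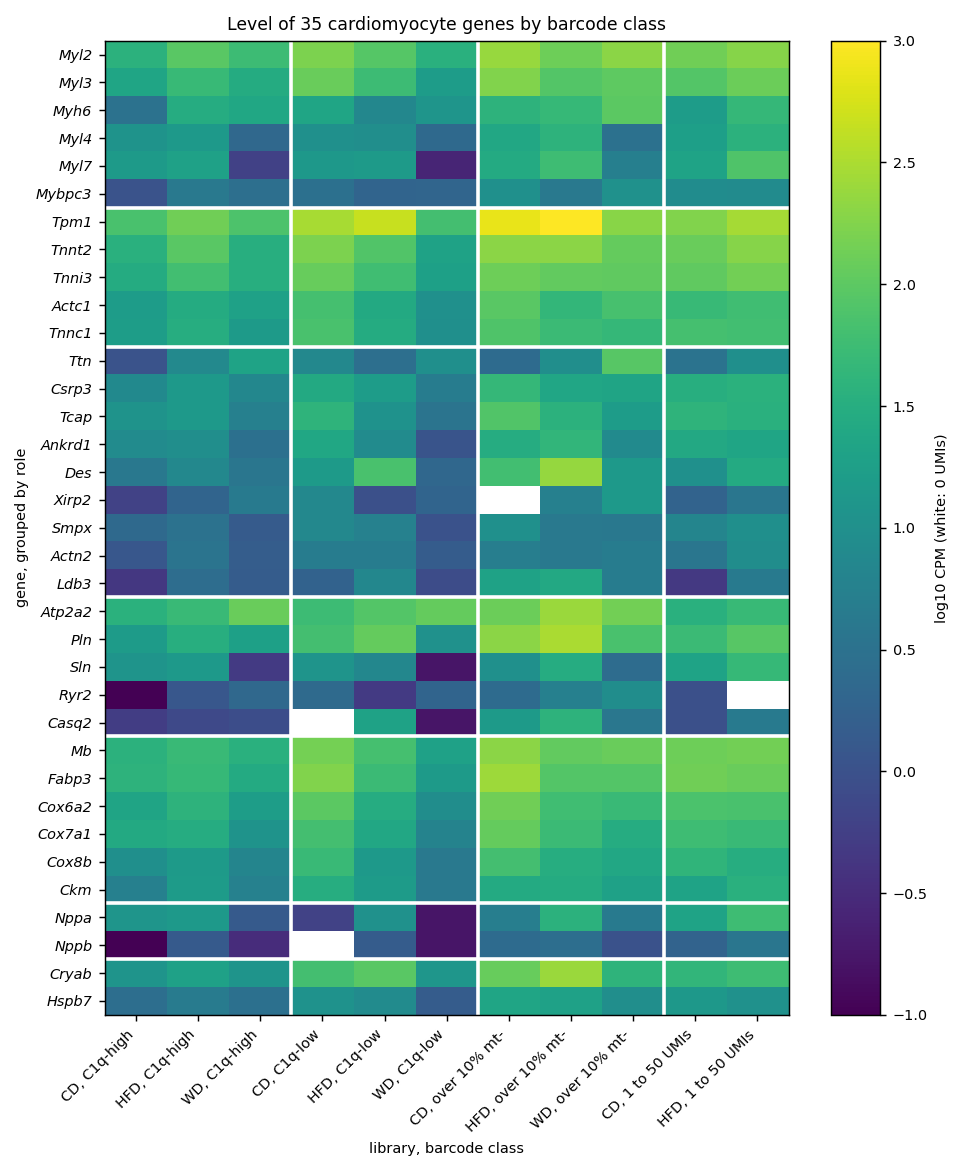
Level of each of the 35 genes, as the log10 of CPM (colour), in each library and barcode class (columns), with genes grouped by role (rows, separated by white lines) and white cells for 0 UMIs. Columns of barcodes over 10% mt- are brighter than C1q-high columns for most genes, and the 4 atrial genes Myl4, Myl7, Sln and Nppa are dark in the 3 WD columns.

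Between HFD and CD C1q-high barcodes, 12 of the 32 members with at least 20 UMIs over both libraries stood 2-fold or more above CD in HFD and 0 stood as far below, where 2.21% of all 11239 genes were higher and 3.75% lower by that measure. All 32 lay above the CD level, with a median log2 ratio of 0.84, beside -0.03 over all genes. Nppb, Ryr2 and Casq2 had fewer than 20 UMIs and were not counted. With a minimum of 100 summed UMIs, 7 members remained past 2-fold higher.

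All 5 thin filament genes were highest in HFD. Tnnt2, which anchors the troponin complex to tropomyosin, stood at 35.2 CPM in CD, 94.3 CPM in HFD and 32.6 CPM in WD. It was 2.68-fold (2.36 to 3.04) higher in HFD than in CD, and its CD and WD levels had a ratio of 0.927 (0.832 to 1.04). Tnni3, the inhibitory troponin, was at 29.2, 62.0 and 31.7 CPM in CD, HFD and WD, 2.13-fold (1.84 to 2.46) higher in HFD than in CD. Actc1, cardiac actin, read 16.4, 29.3 and 19.8 CPM in the same order, and Tpm1, tropomyosin, 69.98, 135.5 and 76.0 CPM. Both were highest in HFD, by 1.78-fold (1.45 to 2.19) and 1.94-fold (1.76 to 2.13) over CD. Tnnc1, the calcium-binding troponin, followed at 16.9, 30.9 and 15.0 CPM.

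Among thick filament genes, the motor itself differed most between HFD and CD. Myh6, the alpha myosin heavy chain of the adult mouse heart, stood at 3.25 CPM (37 UMIs) in CD, 29.6 CPM (195 UMIs) in HFD and 23.8 CPM (1423 UMIs) in WD. It was the lowest in CD, 9.10-fold (6.38 to 13.3) below HFD and 7.32-fold (5.28 to 10.4) below WD. Myl2, the ventricular regulatory light chain, moved less, at 37.7, 95.03 and 54.5 CPM, and Myl3, the ventricular essential light chain, was at 22.1, 50.2 and 29.3 CPM. Relative to Myl2, Myh6 gave 0.0862 UMIs per Myl2 UMI (0.0599 to 0.121) in CD C1q-high barcodes, 0.311 (0.263 to 0.366) in HFD and 0.436 (0.410 to 0.464) in WD. In near-empty barcodes the same ratio was 0.122 (0.0830 to 0.173) in CD and 0.249 (0.191 to 0.321) in HFD, so that the order of CD and HFD was the same there. Over 10% mt- it was 0.156 (0.0842 to 0.271) and 0.372 (0.245 to 0.554). In C1q-low barcodes the order was the reverse, at 0.141 (0.0969 to 0.199) in CD and 0.0829 (0.0454 to 0.140) in HFD, with intervals that overlapped. Myh7, the beta heavy chain, had 4, 9 and 12 UMIs in C1q-high barcodes of CD, HFD and WD. Mybpc3, myosin-binding protein C, had 12 UMIs (1.05 CPM), 27 (4.09 CPM) and 176 (2.94 CPM).

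Ttn, the giant spring protein titin, showed the same order as Myh6 between CD and HFD and a further rise to WD, at 1.05, 7.58 and 20.9 CPM. That is 7.19-fold (3.78 to 14.8) higher in HFD and 19.9-fold (11.3 to 38.5) higher in WD than in CD, on 12 CD UMIs. Ldb3, a Z-disc protein, had 5, 18 and 87 UMIs, a 6.21-fold (2.22 to 21.4) higher level in HFD than in CD. Xirp2, which binds actin at the intercalated disc, had 7, 13 and 258 UMIs and was 2.19-fold (1.26 to 4.17) higher in WD than in HFD. At the other end, Ankrd1, a stress-responsive titin partner, read 8.52, 9.55 and 2.96 CPM. CD and HFD did not differ for it beyond counting error (ratio 1.12, 0.803 to 1.55), and WD was 2.88-fold (2.22 to 3.71) lower than CD. The remaining Z-disc and cytoskeletal genes, Tcap, Csrp3, Des, Actn2 and Smpx, lay between 1.25-fold and 2.84-fold higher in HFD than in CD and between 2.08-fold lower and 1.24-fold higher in WD than in CD.

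Calcium genes did not share 1 pattern. Pln, phospholamban, was at 15.7, 32.0 and 19.0 CPM, highest in HFD like the thin filament genes. Atp2a2, the SERCA pump, was instead highest in WD, at 35.7, 52.0 and 121 CPM, 3.39-fold (3.07 to 3.76) above CD and 2.33-fold (2.09 to 2.60) above HFD. Ryr2, the ryanodine receptor, had 1 UMI in CD, 8 in HFD and 136 in WD, a WD to CD ratio of 25.9 (4.57 to 1030). Casq2, calsequestrin, which stores calcium, had 6, 5 and 52 UMIs in the same libraries.

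Of the 6 energy genes, 5 lay below the members' median ratio between HFD and CD, and Ckm above it. Mb, myoglobin, which stores oxygen, read 37.7, 51.8 and 34.2 CPM in CD, HFD and WD, and Fabp3, a fatty acid carrier, 38.5, 48.2 and 27.7 CPM. Their HFD to CD ratios were 1.38 (1.19 to 1.59) and 1.25 (1.08 to 1.45). Cox7a1, a muscle form of a cytochrome oxidase subunit, was at 26.6, 30.5 and 11.2 CPM, with a ratio of 1.15 (0.953 to 1.37) whose interval holds 1. Cox6a2 and Cox8b, of the same enzyme, and Ckm, muscle creatine kinase, were 1.75-fold, 1.51-fold and 2.88-fold higher in HFD than in CD. The small heat shock genes Cryab and Hspb7 were at 11.7, 19.2 and 11.8 CPM and at 2.81, 4.55 and 3.04 CPM.

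Against CD, 8 members were at least 2-fold higher and 7 at least 2-fold lower in WD C1q-high barcodes, of 35 tested, beside 39.3% and 17.1% of all 14467 genes. The members' median log2 ratio was 0.03 and that of all genes 0.46. Against HFD, 3 were higher and 16 lower, of 35, beside 40.1% and 16% of all genes, with medians of -0.97 and 0.48. These comparisons share the WD library, and each shares 1 library with the HFD to CD comparison.

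**Figure D2:**
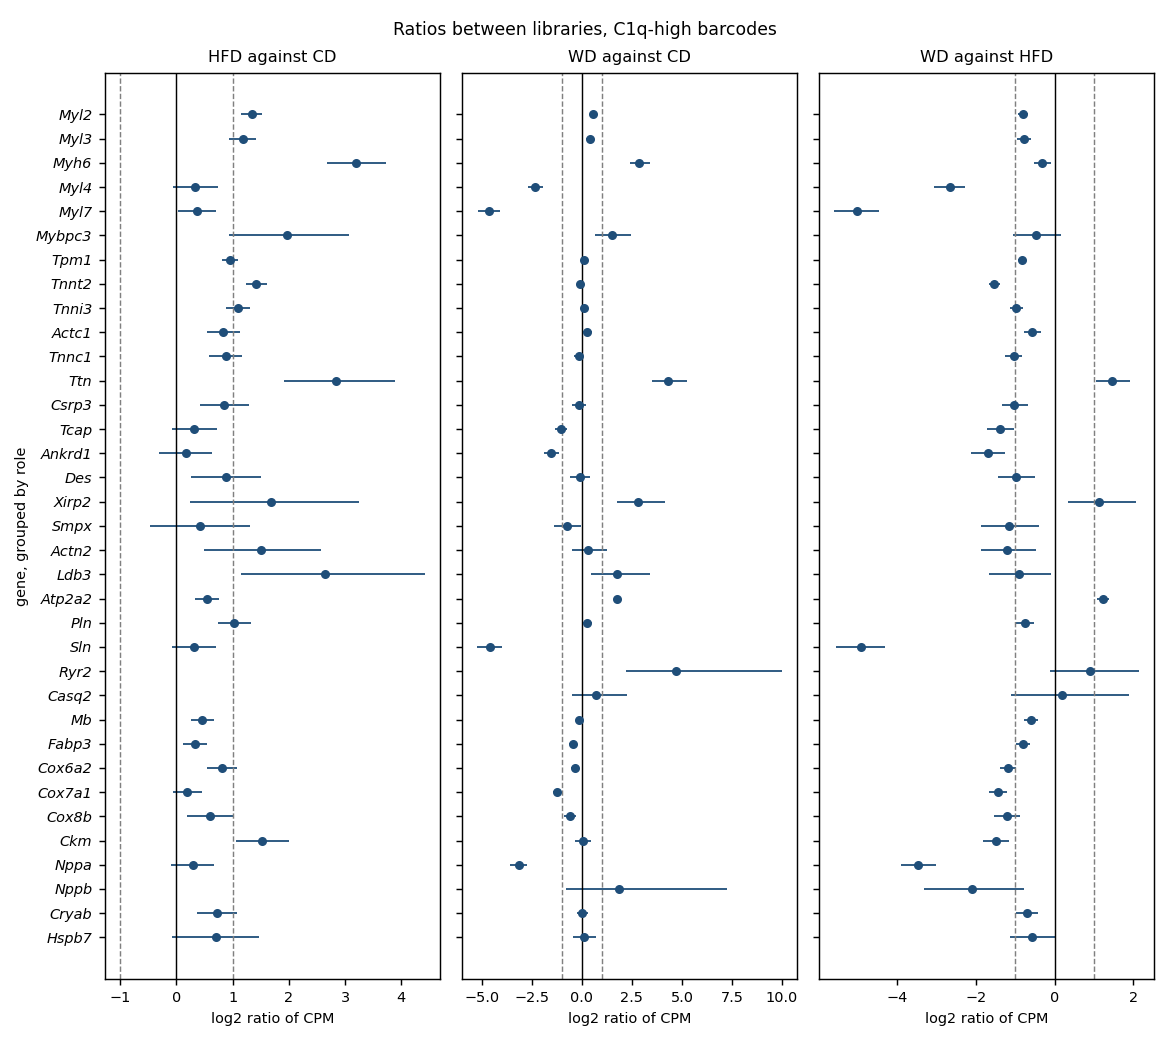
Log2 ratio of CPM between C1q-high barcodes of 2 libraries (x axis) for each member with at least 20 summed UMIs (y axis, grouped by role), with 95% intervals for counting error and dashed lines at 2-fold. All points of the HFD to CD panel lie right of 0, while Myl7, Sln, Nppa and Myl4 lie far left in both WD panels and Ttn, Atp2a2 and Xirp2 right of 0.

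The 4 atrial genes behaved unlike the other 31 in the WD comparisons. Myl7, the atrial regulatory light chain (chromosome 11, 5896637 to 5898782, GRCm38, minus strand), stood at 15.1 CPM in CD, 19.4 CPM in HFD and 0.602 CPM (36 UMIs) in WD. Sln, sarcolipin, read 11.8, 14.6 and 0.485 CPM, and Nppa, which encodes atrial natriuretic peptide (chromosome 4, 148000722 to 148002079, plus strand), 12.0, 14.7 and 1.34 CPM. Myl4, the atrial essential light chain, read 11.2, 14.1 and 2.22 CPM. Each was high in CD and HFD and low in WD: Myl7 was 25.1-fold (17.4 to 37.0) lower in WD than in CD, Sln 24.3-fold (16.2 to 37.6), Nppa 8.999-fold (6.78 to 12.0) and Myl4 5.02-fold (3.90 to 6.45). Between HFD and CD their ratios ran from 1.22 to 1.28.

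Atrial genes made up 9.52% (8.79 to 10.3) of list UMIs in CD C1q-high barcodes, 6.48% (5.89 to 7.11) in HFD and 0.775% (0.686 to 0.871) in WD. The WD share was also low in C1q-low barcodes (0.701%, 0.486 to 0.979) and over 10% mt- (0.886%, 0.726 to 1.07), so all 3 WD classes were low. In CD the share was lower in C1q-low barcodes (1.84%, 1.40 to 2.37) and over 10% mt- (2.08%, 1.38 to 3.01) than in C1q-high ones. Without the 1% of C1q-high barcodes with the largest list share, the HFD share was 3.96%. Among near-empty barcodes the share was 5.10% (4.38 to 5.90) for CD and 10.2% (9.24 to 11.3) for HFD. The near-empty share was thus below the C1q-high share in CD and above it in HFD.

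Matched pairs of a chamber-specific gene and its counterpart gave the same picture. For each Myl2 UMI, C1q-high barcodes held 0.401 Myl7 UMIs (0.334 to 0.4796) in CD, 0.204 (0.167 to 0.247) in HFD and 0.0110 (0.00772 to 0.0153) in WD. Myl4 per Myl3 was 0.504, 0.281 and 0.0757, and Sln per Pln 0.749, 0.455 and 0.0256. In all 3 pairs CD was the highest and WD the lowest, and for each pair the WD interval overlapped neither of the others.

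Because the atrial genes moved together, the promoter bases before the RefSeq start (GRCm38.p6, 5′ to 3′ on the gene's strand) are shown for 2 of them and, for comparison, for the ventricular Myl3. Capitals mark a TATAAA or a CArG box, the binding site of serum response factor, found by a search of both strands that also included the MEF2 site. Their windows are chr4:148000472-148000721 for Nppa, chr11:5898783-5899032 for Myl7 on the minus strand, and chr9:110763428-110763645 for Myl3, the last ending where an annotated exon begins.
Nppa: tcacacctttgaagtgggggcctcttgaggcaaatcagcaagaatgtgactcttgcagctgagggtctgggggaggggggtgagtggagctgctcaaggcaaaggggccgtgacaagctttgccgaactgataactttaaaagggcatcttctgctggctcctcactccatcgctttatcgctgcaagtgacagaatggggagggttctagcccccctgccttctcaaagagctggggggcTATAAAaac
Myl7: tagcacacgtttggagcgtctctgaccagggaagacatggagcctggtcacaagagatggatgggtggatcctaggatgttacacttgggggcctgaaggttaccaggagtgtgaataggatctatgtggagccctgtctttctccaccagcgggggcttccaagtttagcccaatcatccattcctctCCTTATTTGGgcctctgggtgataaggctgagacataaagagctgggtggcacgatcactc
Myl3: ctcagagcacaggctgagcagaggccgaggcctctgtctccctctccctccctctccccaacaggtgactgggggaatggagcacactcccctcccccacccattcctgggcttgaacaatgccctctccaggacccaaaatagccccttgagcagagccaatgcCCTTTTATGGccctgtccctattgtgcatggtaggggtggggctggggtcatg

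A CArG box lay in the window of the atrial Myl7, 61 bases before the start, and of the ventricular Myl3, 85 bases before it, so this motif did not separate the chambers. Of the 36 RefSeq promoter windows of 250 bases found for 30 of the 35 members, 5 (13.9%) held a CArG box, against 1.47% of all 32851 windows. The MEF2 site was in 11.1% of the members' windows and 1.69% of all, and TATAAA in 11.1% and 12.4%. A match is a description of these letters and not a binding site.

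Atrial and ventricular transcripts did not mix freely over C1q-high barcodes of CD and HFD. Of the 37 CD C1q-high barcodes with at least 20 list UMIs, 26 had no atrial UMI at all, 9 had 20% or more of their list UMIs from atrial genes, and 2 lay between. The 9 atrial-rich barcodes held 99.04% of the atrial UMIs of the 37, which follows largely from how they were chosen. In the 30 such HFD barcodes the numbers were 22, 7 and 1. Myl2 and Myl3 together gave 4 of 420 list UMIs (0.952%) in the CD atrial-rich barcodes and 123 of 974 (12.6%) in those with no atrial UMI, while Tnnt2 gave 11.4% and 9.86%. The troponin genes Tnnt2, Tnni3 and Tnnc1, which both chambers use, serve as a denominator that atrial genes do not enter. Per troponin UMI, Myl2 and Myl3 gave 0.0494 UMIs (0.0131 to 0.131) in CD atrial-rich barcodes and 0.554 (0.441 to 0.694) in those without an atrial UMI. HFD gave 0.0805 (0.0314 to 0.173) and 0.829 (0.653 to 1.05).

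The split of the C1q-high barcodes was also seen in barcodes of over 50 and under 1000 UMIs, too small to be counted as cells here. Of 105 such CD barcodes with at least 20 list UMIs, 15 were atrial-rich, with 1 Myl2 or Myl3 UMI to 70 troponin UMIs, and 88 had no atrial UMI, with 466 to 545. Of 79 in HFD, 26 were atrial-rich, with 1 to 241, and 50 had none, with 335 to 370. Median depth was 258 UMIs in the CD and 281 UMIs in the HFD atrial-rich barcodes, and C1q genes gave 0.0840% and 0.230% of their UMIs. Barcodes of this kind thus carried transcripts of 1 chamber with almost no C1q.

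In WD, 454 C1q-high barcodes had at least 20 list UMIs, in a library whose C1q-high median depth was 12242 UMIs against 4319 in CD and 2953.5 in HFD. Of these 405 had no atrial UMI, 7 were atrial-rich and 42 lay between. In the 7 atrial-rich ones Myl2 and Myl3 gave 0.895 UMIs per troponin UMI (0.437 to 1.82), on 19 troponin UMIs, against 1.06 (0.999 to 1.12) in those without an atrial UMI, and the intervals overlapped. Over all WD barcodes of at least 1000 UMIs, 12 were atrial-rich, at 0.439 (0.237 to 0.781), and 550 had no atrial UMI, at 1.11 (1.06 to 1.16), without overlap.

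**Figure D3:**
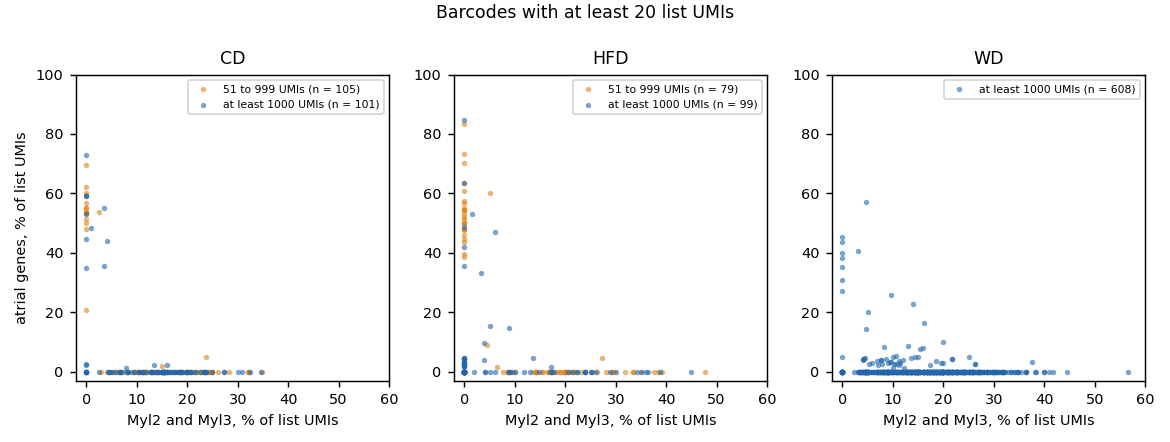
Each point is a barcode with at least 20 list UMIs, at least 1000 UMIs in all (blue) or over 50 and under 1000 (orange), in the 3 libraries; the x axis gives Myl2 and Myl3 and the y axis the 4 atrial genes, as % of list UMIs. In CD and HFD most points lie along 1 axis or the other, and in WD nearly all lie along the x axis. Some points, many of them blue ones in HFD, lie at or near the origin, with few or no UMIs of either kind.

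Per member, the near-empty barcodes were higher for nearly the whole list. In CD 24 of 29 members with at least 20 summed UMIs were at least 2-fold higher in near-empty than in C1q-high barcodes and 0 were lower, where 2.4% of all 10799 genes were higher and 49.1% lower. In HFD it was 22 of 31 higher and 0 lower, where 3.67% of genes were higher and 31.3% lower. Between the near-empty barcodes of HFD and CD, HFD exceeded CD by 2-fold or more for 8 of 30 members and the reverse held for 0, beside 9.12% and 2.57% of all genes. Cryab and Hspb7 were among the highest by the mean of both libraries, at 3.74-fold and 4.84-fold in CD and 3.01-fold and 2.30-fold in HFD, as was Mybpc3 at 8.46-fold and 2.11-fold. Atp2a2 was the lowest, with ratios of 0.985 in CD and 0.947 in HFD, followed by Cox7a1 at 2.13 and 1.72 and Myl4 at 1.64 and 2.66. Ryr2 had 0 UMIs in HFD near-empty barcodes, which allows up to 1.85 CPM (3 UMIs). Shares of the list held by each member ranked alike in near-empty and C1q-high barcodes of the same library, with Spearman's rho of 0.942 in CD and 0.951 in HFD over 35 genes, a description across genes that share libraries.

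Over 10% mt-, 24 of 27 members in CD (14.4% of all genes), 17 of 32 in HFD (14.5%) and 33 of 35 in WD (5.26%) were at least 2-fold above the C1q-high level. The same number below it was 1 in CD (Nppa; 11.1% of all genes), 0 in HFD (8.13%) and 0 in WD (12.9%). Myl2 read 244 CPM in CD, 129 CPM in HFD and 204 CPM in WD, and Mb 200.8, 110 and 121 CPM. In HFD the rise was uneven: Des, the muscle intermediate filament, stood at 233 CPM against 7.27 in C1q-high barcodes, Pln at 316 against 32.0, Tpm1 at 991 against 135.5 and Cryab at 251 against 19.2, while Myl2 was 1.36-fold and Mybpc3 1.01-fold above. Smooth muscle and pericyte markers, which share Des, Tpm1 and Pln with cardiomyocytes as background knowledge, summed to 7819 CPM there with 5 of 6 genes detected and Kcnj8 at 0. They summed to 34.1 CPM in HFD C1q-high barcodes (6 of 6). Over 10% mt- they summed to 3159 CPM in CD (5 of 6, Kcnj8 at 0) and 28.2 CPM in WD (5 of 6, Cnn1 at 0). Their part in the list's level was not tested. Xirp2 had 0 UMIs in the CD barcodes over 10% mt- (up to 7.62 CPM).

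By mt- share, the list rose step by step in WD barcodes of at least 1000 UMIs, from 187 CPM (146 to 236) at 0 to 1% mt- through 497 CPM at 2.5 to 5% and 1253 CPM at 10 to 20% to 5005 CPM (4777 to 5241) at 50% and over. In CD it went from 505 CPM at 1 to 2.5% to 3205 CPM at 10 to 20%, and in HFD from 1003 CPM through 899 CPM at 2.5 to 5% to 3438 CPM. The bins at 0 to 1% and at 50% and over held 11 and 3 barcodes in CD and 3 and 4 in HFD, and no trend is read from them.

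**Figure D4:**
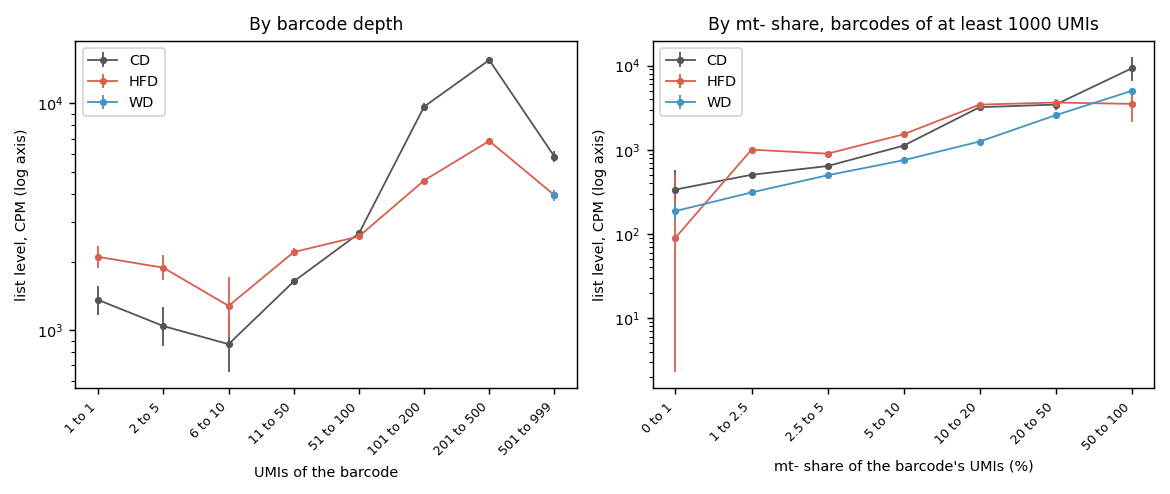
List level in CPM (log y axis) by the barcode's total UMIs (left) and by its mt- share for barcodes of at least 1000 UMIs (right), with 95% counting intervals. On the left CD and HFD peak above 200 and up to 500 UMIs and WD has 1 point, above 500 and under 1000; on the right the WD line rises from 187 to 5005 CPM.

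C1q-low barcodes went in opposite directions in the 3 libraries. The list stood at 1952 CPM in CD, 1518 CPM in HFD and 414 CPM in WD, 3.71-fold (3.56 to 3.88) and 1.57-fold (1.502 to 1.64) above the C1q-high level in CD and HFD and 1.45-fold (1.41 to 1.49) below it in WD. With the C1q split at 1% in place of 0.3% the log2 ratios were 1.25 in CD and 0.073 in WD, in place of 1.89 and -0.54, and the WD direction turned. By member, 24 of 29 were at least 2-fold higher in CD (16.4% of all genes) and 1, Nppa, lower (9.66%). In HFD 6 of 32 were higher (19.3%) and 4, Myh6, Ttn, Sln and Mybpc3, lower (10.1%). By any amount, 14 of the 32 stood higher in HFD C1q-low barcodes and 18 lower. Their median log2 ratio was -0.09, beside 0.26 over all genes, so the higher HFD sum was not shared by most members. Tpm1 alone gave 30.6% of list UMIs in HFD C1q-low and 14.0% in HFD C1q-high barcodes. In WD 0 of 35 were higher (14.8%) and 8 lower (5.7%). The 6 higher in HFD were Tpm1, Des, Pln, Cryab, Casq2 and Ldb3, in barcodes whose smooth muscle and pericyte markers, 6 of 6 detected, summed to 2513 CPM. In CD C1q-low barcodes Nppb and Casq2 had 0 UMIs, which allows up to 1.83 CPM.

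The CD excess lay in barcodes with markers of endothelial cells, which line vessels. Of the 386 CD C1q-low barcodes, 185 had at least 5 UMIs of the 6 endothelial markers, and they held the list at 4559 CPM (4391 to 4732), with Myl2 at 388 CPM, Tnnt2 at 378 CPM and Mb at 357 CPM. The other CD C1q-low barcodes without an endothelial or lymphocyte mark (200) had 431 CPM (392 to 473). Without the endothelial-marked barcodes the CD log2 ratio to C1q-high barcodes was -0.29 in place of 1.89, so the direction turned. Hemoglobin and other erythroid genes summed to 33431 CPM in the endothelial-marked CD barcodes and 32.8 CPM in the unmarked ones, and their part in this was not tested. In HFD, 441 endothelial-marked barcodes had 1637 CPM (1562 to 1716) and the unmarked 1391 CPM (1319 to 1466). In WD, 159 barcodes with natural killer and T cell markers held 220 CPM (195 to 248).

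Thinned to 1000 UMIs per barcode, 31.4% (29.5 to 33.4) of C1q-high barcodes had at least 1 list UMI in CD, 49.5% (47.3 to 51.7) in HFD and 39.6% (38.1 to 41.2) in WD. Without thinning these shares were 67.9%, 76.5% and 94.97% at median depths of 4318, 2951 and 12179 UMIs over the shared genes. Endothelial-marked barcodes, used here as cells of another type since endothelial cells should lack the sarcomere-specific members (though not Tpm1 or Atp2a2), gave 79.5% (72.9 to 85.0) in CD and 53.3% (48.5 to 58.0) in HFD after thinning, at median depths of 2759 and 1909 UMIs. The C1q-high share was thus below the endothelial one in CD, while in HFD the intervals overlapped. HFD endothelial-marked barcodes also held smooth muscle and pericyte markers at 2326 CPM, against 28.1 CPM in CD, with Pln at 120 and Des at 65.9 CPM. HFD C1q-high barcodes held these at 34.1, 32.0 and 7.27 CPM. The HFD endothelial share is therefore not that of barcodes free of other muscle markers. In HFD Tpm1 was in 28.3% of endothelial-marked and 11.4% of C1q-high barcodes. The order was the reverse for Myl2 (6.35% and 9.54%), Tnnt2 (6.12% and 8.44%) and Mb (4.76% and 5.00%), with intervals that overlapped. The C1q-high shares are not read as expression by the cells. For WD the comparison cells were the lymphocyte-marked ones, whose share was below the C1q-high one, with 19.5% (13.6 to 26.5) at 7209 UMIs. Atp2a2 was even across WD cells, at 11.8% (10.7 to 12.8) of C1q-high and 8.81% (4.90 to 14.3) of lymphocyte-marked barcodes, whereas Myl2 was in 5.33% (4.63 to 6.10) and 1.26% (0.153 to 4.47).

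List UMIs were concentrated in few barcodes. The 1% of C1q-high barcodes with the most list UMIs held 20.4% (CD), 14.3% (HFD) and 9.27% (WD) of list UMIs. The 1% with the most atrial UMIs, ranked on their own, held 56.7%, 65.2% and 60.4% of atrial UMIs. Among barcodes of at least 1000 UMIs, the largest shares in 1 barcode were 15.8% and 15.3% of UMIs, in 2 WD C1q-high barcodes of 1094 and 1118 UMIs, each with 19 members detected and no atrial UMI. A HFD C1q-low barcode had 449 list UMIs of 4172 (10.8%), 26 members detected, 0 C1q UMIs and 1.49% mt- UMIs.

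Members differed in how far they followed the others from barcode to barcode. Barcodes with at least 20 UMIs of the other 34 members held 38.7% of Tnnt2 UMIs, 30.7% of Tnnc1, 27.8% of Actc1 and 4.67% of Atp2a2 UMIs in CD, where a median of 2.23% of all UMIs lay in such barcodes. In HFD they held 53.1% of Myl7 and 47.3% of Myl4 UMIs and 1.46% of Atp2a2 UMIs, against 1.68% of all. In WD, where 23.9% of all UMIs lay in such barcodes, they held 46.7% of Tnnt2, 39.5% of Tpm1, 31.8% of Myh6 and 18.6% of Atp2a2 UMIs. Relative to the share of all UMIs in each gene's own set of barcodes, Atp2a2 was the lowest member with at least 20 UMIs in each library (2.19, 0.831 and 1.08), and the medians over members were 11.6, 9.69 and 1.96. In HFD and WD Atp2a2 was therefore spread over barcodes nearly as total RNA was, and in CD less evenly. Tnnt2 stood at 18.3, 12.2 and 2.04 by the same measure. Nppa (1.14) and Casq2 (1.19) lay close to Atp2a2 in WD. In HFD the next lowest members with at least 20 UMIs were Ttn (2.28), Actn2 (2.48) and Myh6 (3.50). SERCA2 is also made in many cell types other than muscle.

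Mean list UMIs per C1q-high barcode rose with depth, from 1.52 in the shallowest 20% of barcodes to 4.04 in the deepest 20% in CD, from 1.97 to 4.75 in HFD and from 5.18 to 19.5 in WD. The level was lower at the deep end, at 407 against 816 CPM, 769.6 against 1404 CPM and 546 against 818 CPM, with the steps between not in order in CD or HFD. Between those ends list UMIs rose less than total UMIs did in all 3 libraries.

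The WD differences went with gene structure. Between WD and CD C1q-high barcodes, the log2 ratio of the 35 members had a Spearman's rho of 0.578 and a Pearson's r of 0.571 with intronic length (log scale for r), and the 18 members with longer introns had a median of 0.47 against -0.37 for the 17 with shorter ones. Without the 4 atrial genes rho was 0.58 and r 0.62. Without Ttn, Ryr2 and Atp2a2 they were lower, at 0.47 and 0.39. Over all genes the median log2 ratio ran from -0.88 at 1 to 3 kb of intron to 2.39 above 100 kb, where Ttn (162 kb) and Ryr2 (525 kb) belong. No source used here states whether intronic reads were counted in WD. Between HFD and CD rho was 0.54 over 32 members, while the medians of all genes stayed between -0.09 and 0.02 over the same length ranges. Each value is a description across genes, whose points share their libraries.

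**Figure D5:**
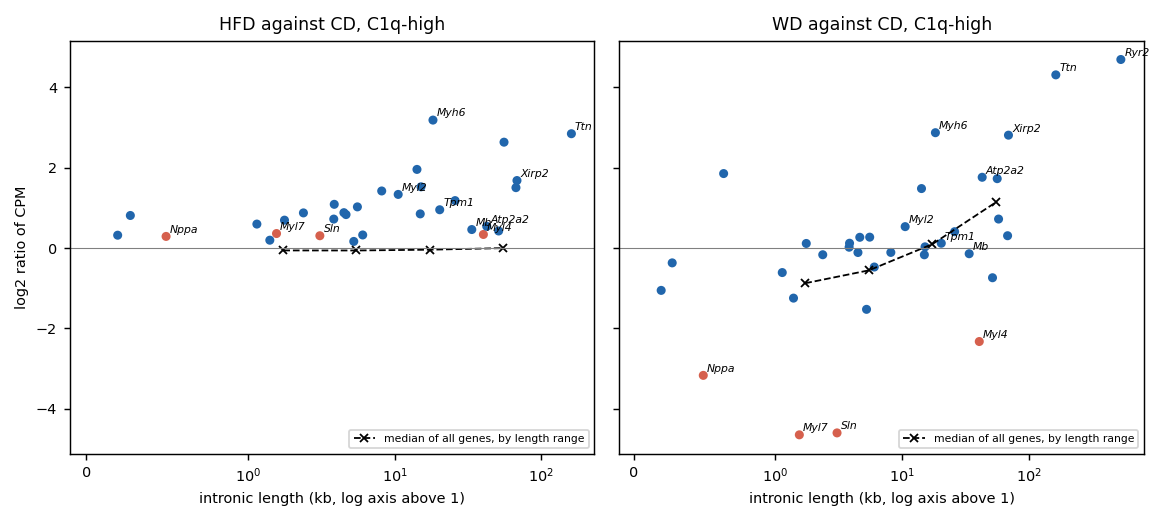
Log2 ratio of CPM in C1q-high barcodes (y axis) against intronic length in kb (x axis, log above 1) for HFD to CD (left) and WD to CD (right), with atrial genes in red, other members in blue and the median of all genes by length range as a dashed line. The dashed line is flat on the left and climbs on the right, where Ttn and Ryr2 lie highest and Myl7 and Sln lowest.

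Other genes of the cardiomyocyte programme, a list of 28 with the heavy chain Myh7, the M-band gene Myom1 and the transcription factor Tbx20 among them, were counted the same way. Of 13 with at least 20 UMIs, 9 were at least 2-fold higher in HFD than in CD (2.21% of all genes) and 0 lower (3.75%). Of 22, 11 were higher in WD than in CD (39.3%) and 0 lower (17.1%), and of 23, 6 were higher (40.1%) and 7 lower (16%) in WD than in HFD. In barcodes over 10% mt-, 6 of 7 in CD (14.4%), 8 of 13 in HFD (14.5%) and 18 of 22 in WD (5.26%) were higher than in C1q-high ones, and in near-empty ones 5 of 7 in CD (2.4%) and 5 of 12 in HFD (3.67%). Slc8a1, the sodium-calcium exchanger, took most of this list's WD UMIs, at 0.966 CPM in CD, 2.27 CPM in HFD and 688 CPM in WD, and was chosen for mention after its values were seen.

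Genes of skeletal muscle showed no such rise in HFD. Of 12, 5 had at least 20 UMIs between HFD and CD, and 0 were 2-fold higher or lower (2.21% and 3.75% of all genes), with a median log2 ratio of -0.04. Of 6 in WD, 1 was at least 2-fold higher and 5 lower than in CD (39.3% and 17.1%). The fast myosin heavy chains Myh1, Myh2 and Myh4 had 0 UMIs in the C1q-high barcodes of each library, which allows up to 0.263, 0.455 and 0.0501 CPM per gene in CD, HFD and WD. Myh6 gave 37 to 1423 UMIs in the same barcodes.

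Muscle forms of cytochrome oxidase can be set against the widely made forms of the same subunits. Cox6a2 made up 3.77% (3.32 to 4.26) of Cox6a2 and Cox6a1 UMIs in C1q-high barcodes of CD, 6.62% (5.85 to 7.45) of those of HFD and 13.2% (12.5 to 14.0) of those of WD. The share was 19.7% (17.0 to 22.7) in CD and 19.7% (16.6 to 23.2) in HFD near-empty barcodes, and 49.2% (45.5 to 53.0) over 10% mt- in WD, against 17.4% (13.3 to 22.2) in CD and 8.03% (5.89 to 10.6) in HFD. Cox8b against Cox8a gave 1.40%, 2.21% and 2.04% in C1q-high barcodes and 9.84% and 8.20% in near-empty ones. Cox7a1 against Cox7a2 gave 6.38%, 7.70% and 6.67% in C1q-high barcodes and 19.5% and 16.5% in near-empty ones. For all 3 subunits the muscle form's share was higher in near-empty than in C1q-high barcodes, with intervals that did not overlap. The WD share of Cox6a2 in C1q-high barcodes goes with a lower counterpart, as Cox6a1 stood at 556, 539 and 111 CPM in CD, HFD and WD and Cox6a2 at 21.8, 38.2 and 16.9 CPM.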

How the data were processed

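The deposited values are unnormalized UMI counts for each gene in each barcode, written by 10x software of version 3.0.1 (CD, HFD) and 7.2.0 (WD) per the file headers. GRCm38 and Seurat are named per the submitters' processing notes; no source used here states the cell filters or the counting of introns. Counts were summed over barcodes of a class and scaled to CPM over 30406 genes shared by Ensembl ID, 597 of them under differing symbols. With 1 library per diet no test was made. Levels carry exact Poisson, ratios exact conditional and shares exact Clopper-Pearson intervals (95%), for counting error only, and 0 UMIs are given with the level of 3. A ratio was counted past 2-fold with at least 20 summed UMIs, and doublets were not removed. Gene positions and intronic lengths came from GENCODE vM21 (GRCm38), promoters from RefSeq. Named were the 10 members with the most C1q-high UMIs, the 4 atrial genes with Myl2, Myl3 and Pln, the 3 highest and 3 lowest of each diet and the near-empty comparison, and members at 0 in a class. Other members are named to complete their role groups. Members and lists were chosen with earlier results of these data known. The summary was tested on simulated data. Python 3.11.15, numpy 2.4.6, scipy 1.17.1 and pandas 2.3.3 were used.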

Additional observations from a re-analysis of the deposited data

Results flagged for a closer look

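C1q-low barcodes stood apart from C1q-high ones in opposite directions, with list log2 ratios of 1.89 for CD, 0.65 for HFD and -0.54 for WD. The difference between libraries was not tested. Without endothelial-marked barcodes the CD value was -0.29. In HFD the median log2 ratio over 32 members was -0.09.

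The atrial share of list UMIs was 5.10% in near-empty against 9.52% in C1q-high barcodes of CD, and 10.2% against 6.48% in HFD. That opposite movement was not tested either.

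Barcodes of over 200 and up to 500 UMIs, which none of the 4 classes holds, carried the list at 1.55% of UMIs in CD and 0.683% in HFD, above the near-empty barcodes of the same libraries (0.157% and 0.216%). Over all barcodes above 50 and under 1000 UMIs the level was 5629 CPM in CD and 3832 CPM in HFD.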

How the results depend on the processing

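No paired analysis was possible because each diet is 1 library, and no replicate was left out or blocked. With 1 library per diet and a deeper WD library, depth limits most the members with few CD UMIs, such as Ryr2, Nppb, Ldb3, Xirp2, Ttn and Mybpc3. Levels below are log2 ratios of the list's CPM.

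With barcodes of at least 500 UMIs, C1q-low against C1q-high was 1.995 (CD) and 0.93 (HFD) and the high mt- class against C1q-high was 2.98 (CD) and 1.62 (WD). With at least 2000 UMIs, the diet ratio was -0.63 (WD to HFD), C1q-low against C1q-high was 1.79 (CD) and 0.78 (HFD), the high mt- class against C1q-high was 2.81 (CD), 2.25 (HFD) and 1.22 (WD), near-empty against C1q-high was 1.23 (HFD) and the atrial share was 5.55% (HFD). With the C1q split at 1%, the diet ratio was 0.029 (WD to CD) and -0.86 (WD to HFD), C1q-low against C1q-high was 1.25 (CD), 0.43 (HFD) and 0.073 (WD), the high mt- class against C1q-high was 1.68 (WD) and the atrial share was 1.01% (WD). With an mt- limit of 5%, the diet ratio was 0.078 (WD to CD) and -0.81 (WD to HFD), C1q-low against C1q-high was 1.67 (CD), 0.20 (HFD) and -0.79 (WD), near-empty against C1q-high was 1.71 (CD) and 1.28 (HFD) and the atrial share was 10.4% (CD). With the high class over 20% mt-, the high mt- class against C1q-high was 2.86 (CD), 1.91 (HFD) and 2.34 (WD). With CPM over genes other than mt-, the high mt- class against C1q-high was 2.84 (CD), 2.03 (HFD) and 1.79 (WD) and near-empty against C1q-high was 2.53 (CD) and 1.997 (HFD). With barcodes weighted equally, the diet ratio was 0.28 (WD to CD) and -0.58 (WD to HFD), C1q-low against C1q-high was 2.25 (CD), 0.44 (HFD) and -0.36 (WD) and the high mt- class against C1q-high was 2.36 (CD), 1.44 (HFD) and 1.89 (WD). Without the 1% of barcodes with the largest list share, the diet ratio was 0.95 (HFD to CD), 0.35 (WD to CD) and -0.60 (WD to HFD), C1q-low against C1q-high was 2.02 (CD), 0.46 (HFD) and -0.61 (WD), the high mt- class against C1q-high was 2.503 (CD) and 1.94 (HFD), near-empty against C1q-high was 1.84 (CD) and 1.34 (HFD) and the atrial share was 3.96% (HFD). With near-empty barcodes of 1 to 10 UMIs, near-empty against C1q-high was 1.13 (CD) and 0.99 (HFD). With at least 100 summed UMIs, the count of members past 2-fold was 7 (higher in HFD than in CD). Without barcodes of at least 20 list UMIs, chosen after seeing the data, the diet ratio was 1.02 (HFD to CD), 0.11 (WD to CD) and -0.90 (WD to HFD) and the atrial share was 8.11% (CD) and 4.18% (HFD). Without endothelial-marked barcodes in the C1q-low class, chosen after seeing the data, C1q-low against C1q-high was -0.29 (CD) and 0.52 (HFD).

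Of the values recomputed, 79 stayed within the main interval (counts, within 1.5 times), 62 moved beyond it with no change of sign and 2 turned, WD C1q-low with the C1q split at 1% and CD C1q-low without endothelial-marked barcodes. The latter turned as the barcodes left out held the list at a higher level than the rest, and the cause of the others was not tested. HFD stayed above CD and WD below HFD under each alternative tried. WD stayed above CD in value, but with the C1q split at 1% its interval (-0.020 to 0.079) held 0. No alternative left out Atp2a2, which gave 20.2% of list UMIs in WD C1q-high barcodes.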
